A study of Mus musculus with 8 samples.

Results

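The genes described here are 8 members of the leukaemia inhibitory factor (LIF) and STAT3 signalling system: the receptor genes Lifr and Il6st, the transcription factor gene Stat3, its feedback inhibitor Socs3, the target gene Myc, and Id1, Id2 and Id3, which answer to bone morphogenetic protein (BMP). Members were chosen by name, with earlier results of these data known, and a probe belonged to a member if its RefSeq transcript did. This gave 11 probes for the 8 genes among 55667 probes, and 8 of the 22685 features tested. Gene expression was measured on 8 one-colour arrays of mouse pluripotent cells, all of strain C57BL/6J. Induced pluripotent stem cells (iPSCs) made with OSKH filled 4 arrays, iPSCs made with OSK, the controls, filled 3, and the embryonic stem cell (ESC) line B6J-23 filled 1. The labels do not spell out the letters, which are read here as the reprogramming factors Oct4, Sox2 and Klf4, with H for the oocyte linker histone H1foo. How the factors were delivered, the medium, any feeder layer, and whether arrays of a group are separate clones are not given in the labels used here, so p-values here reflect the spread among these samples alone, and that spread may be technical.

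LIF binds the receptor chain LIFR, which pairs with the signal transducer gp130, the product of Il6st. Janus kinases on this pair phosphorylate STAT3, which enters the nucleus and activates genes such as Socs3 and Klf4. SOCS3 binds the activated receptor and shuts it down. In mouse ESC culture LIF holds cells in self-renewal, and BMP complements it through SMAD proteins that induce Id genes, whose products block differentiation-promoting bHLH factors.

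Each level below is a log2 signal with the array's own 75th percentile set to 0. A difference is between group means of such levels, with limma's standard error (SE). Detection, meaning a signal well above background, reached 51.4% to 59.0% of probes per array and all 11 member probes on all 8 arrays. All 8 pluripotent markers examined, among them Pou5f1, which encodes Oct4, were also well above background on every array. A single slide held the 8 arrays: row 1 had ESC and OSKH 1 to 3, and row 2 had OSKH 4 and OSK 1 to 3. Arrays of the same number in OSKH and OSK shared a slide column, as did ESC and OSKH 4.

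No member passed the test between OSKH and OSK. Id3 and Myc, 2 of the 8, did not overlap between the groups, as was the case for 7.34% of all features. Id3 was on average 2.00-fold higher in OSKH, and Myc 1.48-fold lower. Lifr, Il6st, Stat3 and Socs3 had differences of -0.22 to 0.03 with overlapping groups, and Lifr, Il6st and Socs3 had their 3 highest values on OSKH 1, OSK 1 and ESC. Id1 varied most among the members and was highest on OSKH 4 and ESC. Limma called 0 of the 22685 features (0%) at an adjusted p under 0.05 for OSKH against OSK, and 1470 had an unadjusted p under 0.05.

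**Figure D1:**
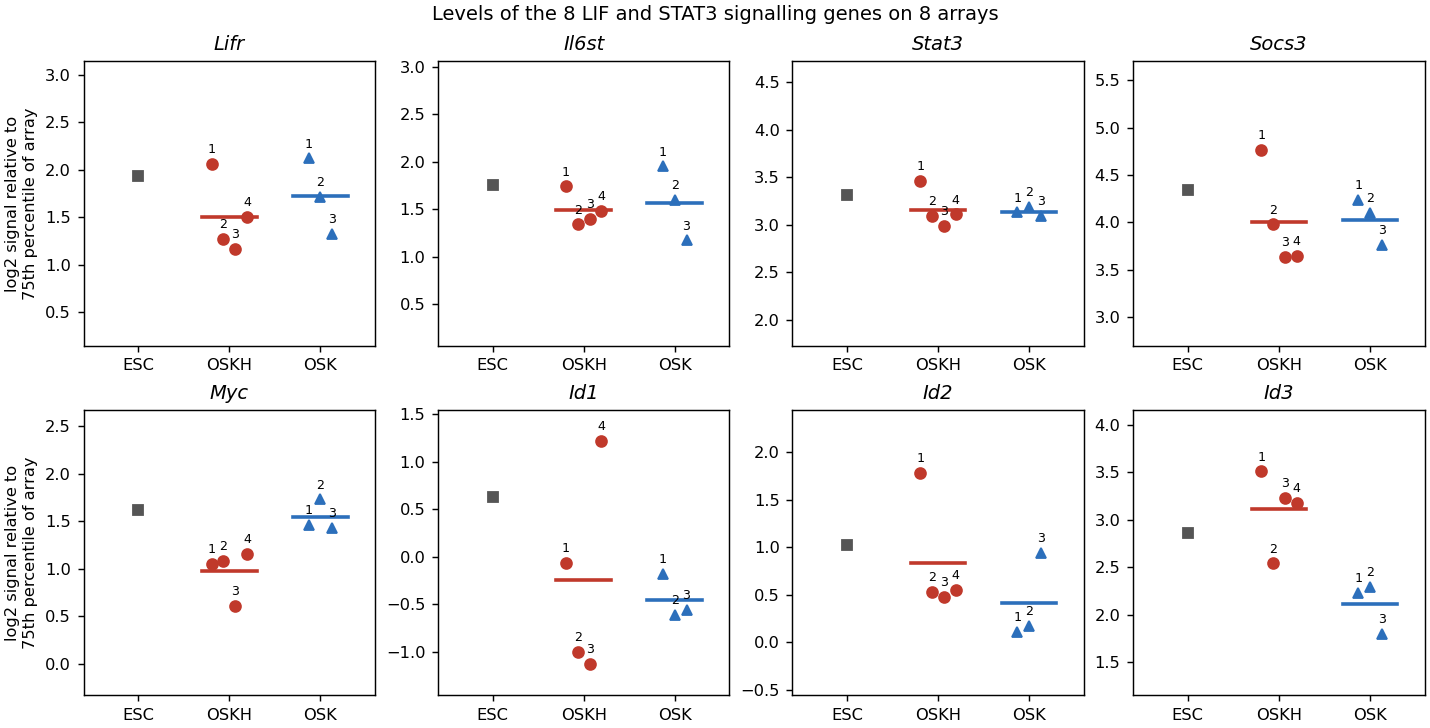
Log2 signal with the 75th percentile of each array at 0 (vertical axis, all panels spanning the same number of log2 units) of each member on the ESC array (square), OSKH arrays (circles) and OSK arrays (triangles). Digits are array numbers and lines are group means. The OSKH and OSK arrays do not overlap for Id3 and Myc, and they overlap for the other 6 genes.

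The receptor chain gene Lifr, by the brightest of its 3 probes, was at 1.93 on the ESC array. It was at 2.06, 1.27, 1.17 and 1.50 on OSKH 1 to 4, and at 2.12, 1.71 and 1.32 on OSK 1 to 3. The groups overlapped almost wholly, with array 1 highest and array 3 lowest in each. The OSKH mean was 1.50 ± 0.40 (SD, n = 4) and the OSK mean 1.72 ± 0.40 (SD, n = 3), a difference of -0.22 (SE 0.27, limma adjusted p = 0.934). On the other 2 probes the difference was -0.16 (SE 0.22) and -0.03 (SE 0.20). OSK 1, OSKH 1 and ESC were the 3 highest arrays on all 3 probes.

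Il6st, which encodes gp130, the signalling chain shared by the receptors for LIF, interleukin-6 and related cytokines, was at 1.75 on the ESC array. On OSKH 1 to 4 it was at 1.74, 1.34, 1.40 and 1.48, and on OSK 1 to 3 at 1.95, 1.60 and 1.17. The OSK arrays spanned the whole range of the OSKH arrays. The difference was -0.08 (SE 0.19, limma adjusted p = 0.967), from an OSKH mean of 1.49 ± 0.18 (SD, n = 4) and an OSK mean of 1.57 ± 0.39 (SD, n = 3). It turned to 0.10 without OSK 1.

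Stat3, by the brighter of its 2 probes, which is printed 10 times on the array, had the smallest range over the arrays of the members. It was at 3.31 on ESC, at 3.46, 3.09, 2.99 and 3.11 on OSKH 1 to 4 and at 3.13, 3.19 and 3.09 on OSK 1 to 3. Only OSKH 1 and ESC stood above the rest. The difference was 0.03 (SE 0.13, limma adjusted p = 0.984), and it was -0.18 (SE 0.26) on the dimmer probe, where the highest arrays were OSKH 1 at -1.72 and OSK 1 at -1.79. On the brighter probe it was -0.074 without OSKH 1.

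Socs3, the direct feedback target of STAT3, was at 4.34 on ESC. It was at 4.76, 3.98, 3.64 and 3.65 on OSKH 1 to 4 and at 4.24, 4.10 and 3.76 on OSK 1 to 3. OSKH 1 lay above every other array, and the other 3 OSKH arrays lay within or below the OSK range. The difference was -0.03 (SE 0.29, limma adjusted p = 0.992), with means of 4.01 ± 0.52 (SD, n = 4) and 4.03 ± 0.25 (SD, n = 3). Within slide row 2 it was -0.39, and it was 0.093 without OSKH 4.

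Promoter windows from RefSeq (build GRCm38.p6, 250 bases before to 50 after a listed start) were found for 6 of the 8 members, in 7 windows, since Lifr has 2. Myc and Id1 had no window and were not searched. The 7 windows were searched on both strands for the STAT-type letters TTCNNNGAA, the E-box CACGTG and the GC-rich letters GGCGCC of BMP-responsive SMAD elements. Of 32851 such windows in the genome, 8.30% held the first, 7.15% the second and 11.9% the third. Among the members, TTCNNNGAA was found once, in the Socs3 window, starting at -154 from the listed start. The stretch around it is shown because Socs3 is the member that STAT3 is best known to drive, with TTCNNNGAA in capitals. It lies at chr11:117969502-117969530 on the minus strand. That is inside the annotated Socs3 gene (chr11:117966079-117970336), so the listed start is not the outermost start of the gene. The 2 Lifr windows likewise lie inside the annotated Lifr gene (chr15:7090610-7197489).

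Socs3: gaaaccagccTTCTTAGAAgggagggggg

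GGCGCC was found in the Socs3 window, in 1 of the Lifr windows, where it occurs at 2 places, and in the Id2 window. CACGTG was in none of the 7. A match to these letters is a description of the sequence, and binding was not measured.

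Across arrays, the receptor genes and Socs3 shared their 3 highest arrays. The arrays with the highest level were OSK 1, OSKH 1 and ESC for Lifr, OSK 1, ESC and OSKH 1 for Il6st, and OSKH 1, ESC and OSK 1 for Socs3. For Stat3 they were OSKH 1, ESC and OSK 2. The root mean square difference between profiles centred on their own means over the 8 arrays ran from 0.16, for Lifr and Il6st, to 0.26 over the 6 pairs among these 4 genes, and from 0.33 to 0.81 over all other pairs of members. This measure is smaller for genes that vary little, and all genes of an array share its labelling and scaling. The summed level of the 8 pluripotent markers, each taken relative to the 75th percentile of its array, moved in the same arrays. It was 405 on OSKH 1, 362 on ESC and 312 on OSK 1, against 259 to 280 on the other 5. The part of these markers and of the slide column that OSKH 1 and OSK 1 share in the receptor gene values was not tested.

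**Figure D2:**
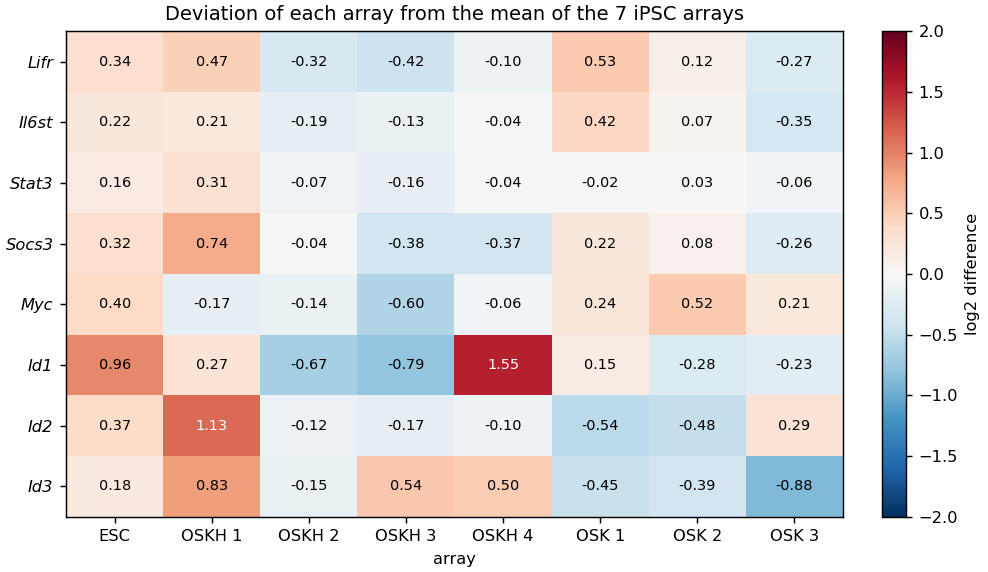
Log2 difference of each array (columns) from the mean of the 7 iPSC arrays for each member (rows), with the value printed in each cell and red for higher. Lifr, Il6st and Socs3 are at 0.21 or above on ESC, OSKH 1 and OSK 1 and at 0.07 to 0.12 on OSK 2. Id1 stands out on OSKH 4 at 1.55, and Id3 is negative on the 3 OSK arrays and, at -0.15, on OSKH 2.

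Myc, a growth-promoting transcription factor and a STAT3 target in mouse ESCs, was at 1.62 on ESC. It was at 1.05, 1.08, 0.61 and 1.16 on OSKH 1 to 4 and at 1.46, 1.73 and 1.43 on OSK 1 to 3. All OSKH arrays lay below all OSK arrays, with OSKH 3 lowest, and ESC lay within the OSK range. The means were 0.98 ± 0.25 (SD, n = 4) and 1.54 ± 0.17 (SD, n = 3), a difference of -0.57 (SE 0.16, limma adjusted p = 0.732; alternatives gave 0.381 to 1). Groups did not overlap in this direction for 4.19% of all features. Array by array of the same number, OSKH minus OSK was -0.41, -0.66 and -0.82, a direction already fixed by the lack of overlap. In slide row 2, OSKH 4 lay -0.38 from the OSK mean, and the mean of OSKH 1 to 3, in the other row, lay -0.63 from it.

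Of 11 Myc partners and relatives listed, 9 were tested, 0 were called and 2 had a difference above 0, with a median of -0.15 against -0.014 for all features. The relative Mycn, given after its values were seen, had a higher signal than Myc. Its means were 4.87 in OSKH and 4.85 in OSK, a difference of 0.02 (SE 0.16). Mxd3, a Max partner that opposes Myc, had a mean of -0.81 ± 0.18 in OSKH (SD, n = 4) and -0.54 ± 0.24 in OSK (SD, n = 3). Mlx, a Max-like factor, differed by -0.21 (SE 0.11, limma adjusted p = 0.826). Of 8 Myc target genes, all tested, 0 were called, and the median difference was -0.01. Ldha, lactate dehydrogenase, was at 8.64, 8.60, 8.83 and 8.79 on OSKH 1 to 4 and at 8.54, 8.47 and 8.51 on OSK 1 to 3, a difference of 0.21 (SE 0.09, limma adjusted p = 0.767). Odc1, the ornithine decarboxylase of polyamine synthesis, differed by -0.09 (SE 0.09).

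Among the Id genes, Id3 differed most between the groups. It was at 2.86 on ESC, at 3.51, 2.54, 3.23 and 3.18 on OSKH 1 to 4 and at 2.23, 2.29 and 1.80 on OSK 1 to 3. Every OSKH array was above every OSK array, the nearest being OSKH 2 and OSK 2, and ESC lay among the OSKH arrays. The means were 3.11 ± 0.41 (SD, n = 4) and 2.11 ± 0.27 (SD, n = 3), a difference of 1.00 (SE 0.24, limma adjusted p = 0.732; alternatives gave 0.382 to 1). Groups did not overlap in this direction for 3.15% of all features. Same-numbered arrays differed by 1.28, 0.24 and 1.43, a direction already fixed by the lack of overlap. OSKH 4 lay 1.07 above the OSK arrays of its own slide row, and OSKH 1 to 3 lay 0.98 above them on average.

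Id2 was at 1.02 on ESC, at 1.78, 0.53, 0.48 and 0.55 on OSKH 1 to 4 and at 0.11, 0.17 and 0.94 on OSK 1 to 3. OSKH 1 stood far above the other 3 OSKH arrays, and OSK 3 above the other 2 OSK arrays, so the groups overlapped. The difference was 0.43 (SE 0.38, limma adjusted p = 0.903), and it fell to 0.11 without OSKH 1. It rested on pair 1, where OSKH minus OSK was 1.67, against 0.36 and -0.46 in pairs 2 and 3. In slide row 2 it was 0.15, and without OSK 3 it was 0.69.

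Id1 had the widest spread of the members. It was at 0.63 on ESC, at -0.06, -1.00, -1.13 and 1.22 on OSKH 1 to 4 and at -0.18, -0.61 and -0.56 on OSK 1 to 3. The OSKH arrays surrounded the OSK arrays on both sides, with OSKH 4 and OSKH 1 above them and OSKH 2 and 3 below. Over the 7 iPSC arrays its SD of 0.79 was at or above that of 95.9% of features, against 92.4% for Id3, 90.2% for Id2 and 35.6% for Stat3. The OSKH mean was -0.24 ± 1.08 (SD, n = 4) and the OSK mean -0.45 ± 0.23 (SD, n = 3), a difference of 0.21 (SE 0.56, limma adjusted p = 0.970). That difference was -0.28 without OSKH 4 and 0.51 without OSKH 3. In slide row 2, from OSKH 4 alone against OSK, it was 1.67.

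The Id genes did not move as a block. OSKH 4 had the highest Id1 but its Id2, at 0.55, was beside those of OSKH 2 and 3. OSKH 3 had the lowest Id1 and the second highest Id3. No promoter window was found for Id1, so its sequence could not be shown. The sequences before the Id2 and Id3 starts are shown because these are the Id genes in which OSKH exceeded OSK by more than the SE. They were read from the RefSeq windows at chr12:25096093-25096342 (minus strand) and chr4:136143572-136143821 (plus strand), and GGCGCC is in capitals.

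Id2: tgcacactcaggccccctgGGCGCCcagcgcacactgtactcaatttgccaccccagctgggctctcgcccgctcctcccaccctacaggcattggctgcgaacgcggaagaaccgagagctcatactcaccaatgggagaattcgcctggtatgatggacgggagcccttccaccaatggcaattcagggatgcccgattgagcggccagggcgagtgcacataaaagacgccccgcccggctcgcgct

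Id3: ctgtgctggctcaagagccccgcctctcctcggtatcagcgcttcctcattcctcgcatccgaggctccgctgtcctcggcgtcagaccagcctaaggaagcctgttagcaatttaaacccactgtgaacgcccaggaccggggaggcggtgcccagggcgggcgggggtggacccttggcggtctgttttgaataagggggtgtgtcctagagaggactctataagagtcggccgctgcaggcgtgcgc

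**Figure D3:**
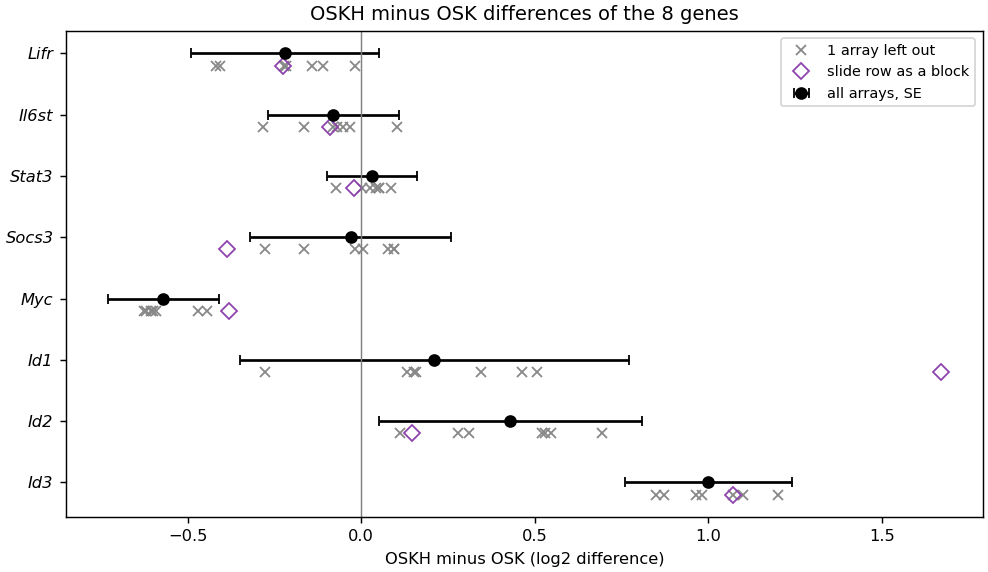
OSKH minus OSK log2 difference of each member. Filled circles are the limma estimate over all arrays with its SE, crosses the estimates with 1 iPSC array left out, and open diamonds the estimate with slide row as a block, which is OSKH 4 alone against OSK. Id3 stays near 1.00 and Myc below 0 throughout, whereas Id1 runs from -0.28 to 1.67. The directions of Id3 and Myc are fixed here, since their groups do not overlap.

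The arrays with high Id1 also had high levels of other genes. Bmp4, a ligand that induces Id genes, was at 2.75 on ESC, at 2.79, -0.01, 0.53 and 2.21 on OSKH 1 to 4 and at 0.29, 0.15 and 0.12 on OSK 1 to 3. It was picked after its values were seen. ESC, OSKH 1 and OSKH 4 were the 3 highest arrays for both Bmp4 and Id1. The other BMP ligands tested, also given after their values were seen, did not share these arrays. Bmp7 was highest on OSKH 4 at 1.85 but at 0.26 on OSKH 1 and 0.40 on ESC. Bmp8b was lowest on OSKH 1 at -2.29 and OSKH 4 at -2.23. Markers of early differentiation (10 genes, among them the mesendoderm factors Eomes and Gsc) summed to 47.1 on OSKH 4 and 4.97 on ESC. On OSKH 1 to 3 they summed to 0.856 to 1.90, and on OSK 1 to 3 to 0.613 to 1.11. On OSKH 4, 9 of the 10 were well above background, all but Pax6, against 6 on ESC and 2 to 7 on the others. Fibroblast and feeder markers (9 genes) summed to 24.5 on OSKH 4 and 22.8 on ESC, against 8.52 to 13.5 on OSKH 1 to 3 and 5.56 to 10.5 on OSK. Such sums weigh bright genes most. Their mean log2 level was 0.19 on OSKH 4 and 0.1 on ESC, against -2.72 to -1.75 on the other iPSC arrays. Thy1, 1 of the 9, went otherwise, at 2.49, 2.47, 3.44 and 2.50 on OSKH 1 to 4. All 9 were well above background on OSKH 4, whereas Lum, which encodes the matrix proteoglycan lumican, was not on any other iPSC array. In bulk RNA, a change in the number of cells of a type and in the RNA per cell cannot be told apart. The part of these cells, and of the slide column that ESC and OSKH 4 share, in the Id1 values was not tested.

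**Figure D4:**
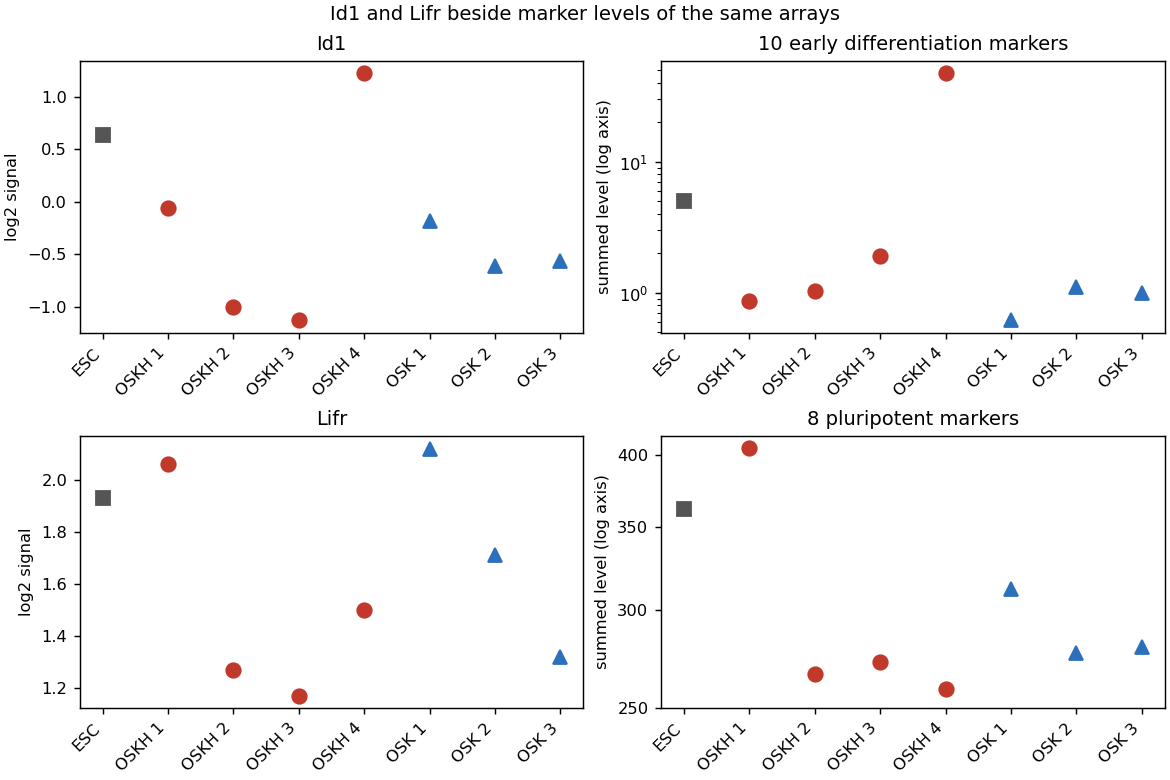
Left, log2 signal of Id1 and Lifr relative to the 75th percentile on each array. Right, summed level of 10 early differentiation markers and of 8 pluripotent markers on the same arrays, on log axes (ESC square, OSKH circles, OSK triangles). Id1 and the differentiation markers are highest on OSKH 4 and next on ESC, and Lifr and the pluripotent markers are highest on OSKH 1, ESC and OSK 1, in differing order.

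Compared with the ESC array, no member lay outside the iPSC arrays. For all 8 genes the ESC level was within the range of the 7 iPSC levels, at rank 2 of 8 from the top for Il6st, Stat3, Socs3, Myc, Id1 and Id2, rank 3 for Lifr and rank 4 for Id3. Of all features, the ESC array lay above every iPSC array in 18.5% and below in 8.09%. Limma called 0 features (0%) for OSKH against ESC and 0 (0%) for OSK against ESC, with 990 and 1365 at an unadjusted p under 0.05. Both comparisons rest on the same ESC array, from which no spread of ESC values can be estimated.

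The OSKH mean was below ESC in 7 of 8 members, and the OSK mean in 8 of 8. Other genes leaned the same way relative to this 1 ESC array. Of 108 other pathway genes tested, described below, 40 were above ESC in OSKH and 35 in OSK. The median difference over all features was -0.054 in OSKH and -0.046 in OSK. Relative to ESC, Myc was at -0.64 (SE 0.23, limma adjusted p = 0.999) in OSKH and -0.08 (SE 0.24) in OSK. Id3 was at 0.25 (SE 0.36) in OSKH and -0.75 (SE 0.37, limma adjusted p = 0.832) in OSK. Id1 was at -0.87 (SE 0.82) and -1.08 (SE 0.85), and within slide row 1 the mean of OSKH 1 to 3 lay -1.36 from ESC. Lifr was at -0.43 (SE 0.39) in OSKH and -0.21 (SE 0.41) in OSK, Socs3 at -0.34 (SE 0.43) and -0.31 (SE 0.44). Il6st was at -0.26 (SE 0.28) and -0.18 (SE 0.29), Stat3 at -0.15 (SE 0.18) and -0.17 (SE 0.19), and Id2 at -0.18 (SE 0.55) and -0.61 (SE 0.57). With slide column as a block, where ESC meets only OSKH 4, the Id1 differences were 0.59 and 0.86. With slide row as a block, where OSKH 4 alone links the rows, they were -1.36 and -3.03 (SE 0.62, limma adjusted p = 0.196).

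The rest of the pathway was read from 12 lists of 119 genes, of which 108 were tested. Like the members, the lists were chosen with earlier results of these data known. Limma called 0 of the 108 in any of the 3 comparisons. Between OSKH and OSK, 63 had a difference above 0, and the median was 0.04 against -0.014 for all features. Groups did not overlap for 7 genes higher in OSKH (6.48%, against 3.15% of all features) and 2 lower (1.85%, against 4.19%). The 7 were Cish, Dusp4, Fst, Ldha, Smad1, Stat4 and Stat5b, and the 2 were Cebpd and Mlx.

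Of 8 ligand genes of the gp130 family, 6 were tested, with a median difference of 0.01. Lif itself was at -3.60 on ESC, at -3.80, -4.07, -3.80 and -3.06 on OSKH 1 to 4 and at -3.33, -3.47 and -3.48 on OSK 1 to 3, with OSKH 4 highest. Its signal was dim, though well above background on every array. The Lif difference of -0.26 (SE 0.23) was -0.13 with another background correction (normexp). It was 0.37 within slide row 2, from OSKH 4 alone. Ctf1, cardiotrophin, differed by 0.18 (SE 0.12). Of the 5 receptor genes that pair with gp130, 3 were tested. Il6ra, the interleukin-6 receptor, averaged -0.74 ± 0.31 in OSKH (SD, n = 4) and -1.30 ± 0.36 in OSK (SD, n = 3), and Il11ra1, the interleukin-11 receptor, differed by -0.25 (SE 0.16).

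Downstream of the receptor, 10 of 11 Janus kinase and adaptor genes were tested, with a median difference of -0.02. Jak3, a kinase best known from lymphocytes, averaged -1.28 ± 0.54 in OSKH (SD, n = 4) and -1.93 ± 0.25 in OSK (SD, n = 3). Gab1, an adaptor that links gp130 to the MAP kinase and PI3 kinase branches, was at 2.17, 1.81, 1.28 and 1.40 on OSKH 1 to 4 and at 2.45, 2.16 and 1.76 on OSK 1 to 3. As for Lifr, its highest array in each group was array 1.

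Among the other STAT genes, which encode relatives of STAT3, Stat4 was at 1.27, 1.23, 1.31 and 1.06 on OSKH 1 to 4 and at 0.76, 0.68 and 1.01 on OSK 1 to 3 (difference 0.40, SE 0.11, limma adjusted p = 0.732). Stat5b was at -1.07, -0.70, -0.55 and -0.75 against -1.49, -1.18 and -1.18 (difference 0.52, SE 0.15, limma adjusted p = 0.732). In both genes the groups did not overlap, but the nearest arrays lay close together. Within slide row 2, OSKH 4 alone lay 0.24 above the OSK mean for Stat4. For Stat5b, OSKH 4 was at -0.75 against an OSK mean of -1.29, a gap no smaller than the difference over all arrays. Stat5a differed by -0.64 (SE 0.46) and Stat6 by -0.04 (SE 0.14), both given after their values were seen. Interferon-induced genes (8 markers) summed to 50.2 to 67.6 on the 4 arrays of slide row 1 and to 15.2 to 25.0 on the 4 of row 2, so that OSKH 4 sat with OSK. All 8 had an OSKH mean above the OSK mean, with a median difference of 1.15, and 0 were called. Their part in the STAT values was not tested.

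Of 14 inhibitors of JAK and STAT signalling, all tested, 10 had a difference above 0 and the median was 0.07. Cish, a SOCS family member best known as a STAT5 target, was at 0.48, 0.28, 0.33 and 0.68 on OSKH 1 to 4 and at 0.15, 0.02 and -0.03 on OSK 1 to 3. All OSKH arrays were above all OSK arrays (difference 0.39, SE 0.12, limma adjusted p = 0.732). Pias2, a SUMO ligase that restrains STAT factors, differed by -0.23 (SE 0.11).

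Of 18 other LIF and STAT3 targets, 17 were tested, and 11 had a difference above 0, with a median of 0.12. The 2 with the smallest p had differences below 0. Gbx2, a homeobox gene that sustains mouse ESC self-renewal downstream of STAT3, was at 0.54, 2.52, 0.81 and 1.22 on OSKH 1 to 4 and at 2.46, 3.13 and 2.82 on OSK 1 to 3. Only OSKH 2 reached the OSK range (difference -1.53, SE 0.47, limma adjusted p = 0.732). Cebpd, a C/EBP factor induced by STAT3, was at 2.78, 3.00, 2.64 and 2.43 on OSKH 1 to 4 against 3.20, 3.64 and 3.36 on OSK 1 to 3, with no overlap (difference -0.69, SE 0.17, limma adjusted p = 0.732). ESC lay at 2.80 for Cebpd and at 2.37 for Gbx2. The OSKH mean was below the OSK mean for these 2 genes, which were picked by p, and for Myc. It was above the OSK mean for 11 of the 17 targets, and the Socs3 means lay 0.03 apart.

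In the MAP kinase branch, which LIF also activates, 12 of 12 genes were tested, with a median difference of 0.05. Dusp4, a phosphatase that inactivates ERK, was at 2.17, 0.78, 1.22 and 1.00 on OSKH 1 to 4 and at 0.55, 0.56 and 0.48 on OSK 1 to 3. The groups did not overlap, and the difference of 0.76 (SE 0.32, limma adjusted p = 0.767) fell to 0.47 without OSKH 1. Egr1, an immediate early gene, averaged 2.12 ± 0.36 in OSKH (SD, n = 4) and 1.69 ± 0.51 in OSK (SD, n = 3), a difference of 0.43 (SE 0.29). OSKH 4, the only OSKH array in the slide row of OSK, lay -0.06 from the OSK mean.

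In the BMP branch upstream of the Id genes, 10 of 12 ligand, receptor and SMAD genes were tested, 8 had a difference above 0 and the median was 0.16. Smad1, a carrier of the BMP signal, was at -1.16, -1.22, -1.23 and -0.59 on OSKH 1 to 4 and at -1.38, -1.42 and -1.57 on OSK 1 to 3. OSKH 4 stood above the other 3, and all 4 were above OSK (difference 0.41, SE 0.17, limma adjusted p = 0.767). Smad1 differed by 0.86 within slide row 2, from OSKH 4 alone, and by 0.25 in same-numbered pairs, a fit without OSKH 4. Smad4, the partner shared by BMP and activin signals, was at 3.35 ± 0.16 (SD, n = 4) and 3.12 ± 0.17 (SD, n = 3).

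Of 10 BMP inhibitors, 9 were tested, with a median of 0.06. Fst, the secreted activin and BMP antagonist follistatin, was at 1.91, 1.41, 2.69 and 3.07 on OSKH 1 to 4 and at 0.11, 0.32 and 0.86 on OSK 1 to 3. All OSKH arrays lay above all OSK arrays, as for Id3 (difference 1.84, SE 0.42, limma adjusted p = 0.732). Smurf1, a ligase that degrades BMP SMADs, differed by -0.17 (SE 0.14). Of the remaining Id gene and the bHLH partners of Id proteins, 4 of 4 were tested with a median of 0.07. Id4 was at -0.99 on OSKH 1 and between -3.16 and -2.60 on the other 3 OSKH arrays, against -3.00 to -2.65 on OSK. As for Id2, OSKH 1 was its highest array. Tcf12, a bHLH partner, differed by 0.08 (SE 0.13).

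**Figure D5:**
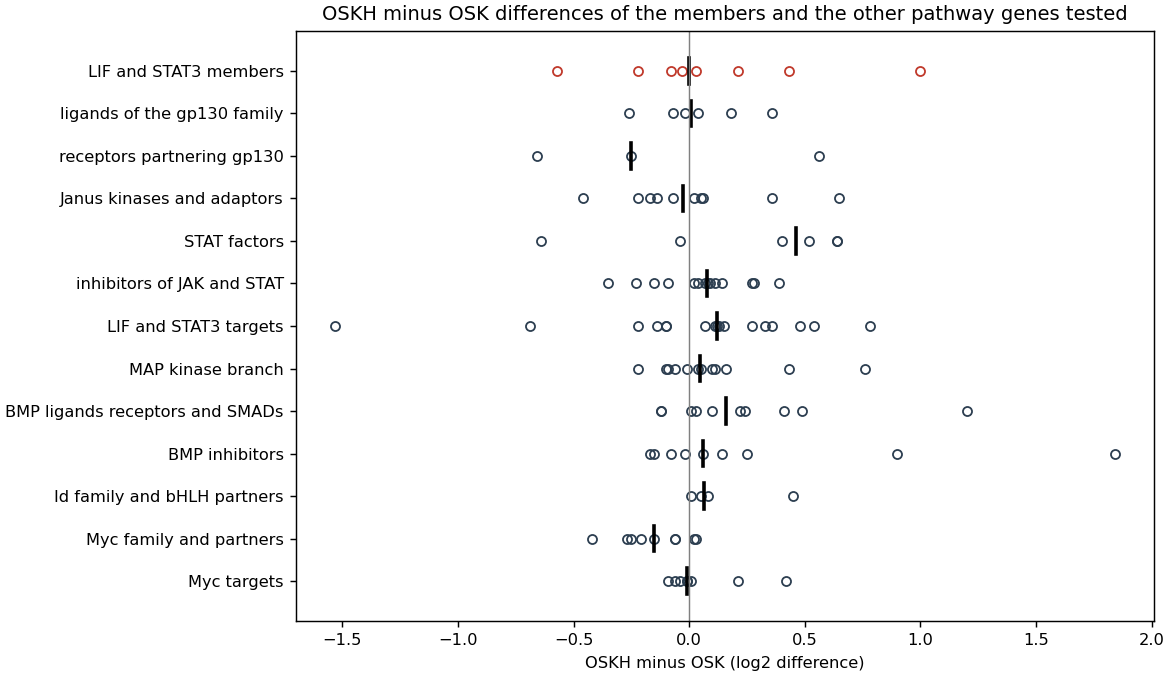
OSKH minus OSK log2 differences of the 8 members (top, red) and of the 108 other pathway genes tested, by list. Circles are genes and black bars list medians. Most genes lie near 0, and the widest differences are Fst at 1.84 and Gbx2 at -1.53.

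Genes with profiles most like a member were sought among 3726 named genes with a range of at least 1 log2 unit, by the root mean square difference of centred profiles over the 8 arrays. Lifr, Il6st and Stat3 had smaller ranges and were not matched. Nearest to Socs3 was Fam178b (0.08), at 3.35 on OSKH 1, 2.76 on OSK 1, 2.73 on ESC and 2.13 to 2.57 on the rest, followed by Zbtb38 (0.12). For Myc they were Btbd7 (0.13) and the integrin gene Itga3 (0.20). For Id1 they were the nuclear receptor gene Nr2f1 (0.19) and Inhbb (0.20), a subunit of activin B, at 1.56 on OSKH 4, 1.26 on ESC and 0.76 on OSKH 1. For Id2 they were Tnfaip8l2 (0.17) and the histone gene H3c1 (0.19). For Id3 they were Sdk1 (0.17) and Abca7 (0.21). With so many candidates and 8 arrays, close matches can arise without any relation between the genes.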

How the data were processed

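Per the labels, total RNA was labelled with Cy3. Per the file headers and the submitters' processing notes, Agilent Feature Extraction 11.5.1.1 quantified the spots, and the deposited intensity is its processed signal, from which background and spatial trend were removed on each array, with no scaling across arrays. The deposited value table, on a log2 scale, matched log2 intensity, less a constant for each array, within 0.01 for at least 99.7% of probes, with column medians of -3.71 to -3.60, so its scale and direction are settled. No source used here names the software behind it.

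Control spots (3671) and outlier spots were left out and spots averaged per probe. From log2 of each mean signal, log2 of the array's 75th percentile (424 to 501) was subtracted. There were 0 saturated probes. A probe was tested if 3 or more of the 8 arrays flagged it well above background, with the brightest probe per gene. RefSeq accessions named 27650 probes through a GRCm38.p6 table, and 28017 kept the identifier of the file. The array annotation refers to mm9. The number of arrays limits the precision.

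The 3 groups were fitted with limma 3.58.1 in R 4.3.3 (5 residual and 1.85 prior degrees of freedom), with Benjamini-Hochberg adjustment over 22685 features. For ESC, with 1 array, the spread of the iPSC groups was assumed. The fit was tested on simulated data. Alternatives were normexp background correction, quantile normalization, the deposited value table, no filter on dim probes or detection on all 8 arrays, only the groups compared, the mean of a gene's probes, slide row, slide column or array number as a block, and each iPSC array left out. The files hold no mean spot signal, so normexp (offset 50) used median signals.

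Same-numbered OSKH and OSK arrays deviated together from their group means (correlations over features of 0.47, 0.26 and 0.45 for arrays 1 to 3), and the numbers come from the titles. They share a slide column too.

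Members and lists were chosen with earlier results of these data known. Genes named are the members, the 2 genes of each pathway list with the smallest p for OSKH against OSK, and genes most like a member. Others are marked where named, or are those without overlap. The summary of the STAT gene list is not reported here.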

Additional observations from a re-analysis of the deposited data

Results flagged for a closer look

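In 3 of 32 sets of OSKH arrays examined (8 members and 24 named pathway genes), 1 array stood apart from the other 3 by Dixon's test. The nominal chance rate of about 1 in 20 need not hold, since the 24 were picked by p from these same values. The share over all features is not given here. Pathway genes outside the 32 stood apart too, namely Klf5, Ptpn1, Map2k2, Bmpr2 and Ccnd1. The flags are therefore not particular to the genes named, and no result is drawn from their count. The ratio of the gap to the range was 0.943 for Id2, where OSKH 1 was high at 1.78 against 0.48 to 0.55. It was 0.884 for Smad1, where OSKH 4 was high at -0.59, and 0.972 for Tcf12, where OSKH 2 was high at 1.32 against 1.02. The range of Tcf12 was small.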

How the results depend on the processing

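No member and no pathway gene was called under any alternative run, in any comparison. Counts of calls over all features moved from 0 to 47 (OSKH against OSK) and 38 (OSK against ESC) with slide row as a block, a fit in which OSKH 4 alone is set against OSK and links OSK to ESC. Without the filter on dim probes they were 11 (OSKH against ESC) and 9 (OSK against ESC). The cause was not tested. With 1 array left out in turn each count stayed at 0. The replicate block by array number, a fit without OSKH 4, gave 0 calls and changed no call. It turned Id1 to -0.28 and Socs3 to 0.093 between OSKH and OSK. Id3, Id2, Lifr and Myc kept their direction between OSKH and OSK under every alternative run, with ranges of 0.85 to 1.20, 0.11 to 0.69, -0.42 to -0.02 and -0.63 to -0.38. With 1 array left out, or with a block, the directions of Id3 and Myc were fixed by the lack of overlap.

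Some differences changed sign. Between OSKH and OSK, Stat3 was -0.078 with the mean of its probes, -0.022 with slide row as a block and -0.18 on its other probe. With 1 array left out, Stat3 ran from -0.074 to 0.085, Socs3 from -0.28 to 0.094, Id1 from -0.28 to 0.51 and Il6st from -0.28 to 0.10. For OSK against ESC, Il6st ran from -0.36 to 0.022 with 1 array left out, Socs3 was 0.17 with slide row as a block, and Stat3 was 0.16 on its other probe. With slide column as a block, where ESC is set against OSKH 4 alone, chosen after seeing the data as was the probe exchange, Id1 was 0.59 (OSKH) and 0.86 (OSK) and Myc 0.17 (OSK) relative to ESC. The cause was not tested. All member probes were well above background, so dim signal does not limit these values, whereas 1 ESC array does.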
